A study of Homo sapiens with 2 samples.

Results

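The 8 genes described here encode transcription factors of the adrenergic core regulatory circuit: PHOX2A, HAND2, HAND1, GATA2, GATA3, ISL1, TBX2 and INSM1. They were chosen by name from the 33538 genes of a single-cell count matrix, and all 8 Ensembl identifiers were matched to their symbols. Their RNA was measured in SH-SY5Y (SY5Y), a human neuroblastoma cell line that grows as neuroblast-like cells of the sympathetic lineage. Untreated, unsynchronized cells were divided between 2 flasks, SplitA and SplitB. Each flask received a different hashtag antibody, and both were loaded together as 1 droplet library of 3′ ends. No gene was altered and no agent was added in either flask, so the design holds no contrast of conditions and both flasks carry the same cell line, medium and handling. A single cell line stands here for the adrenergic state, and the flasks came from 1 split, so the spread between them may be technical.

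A cell was assigned to a flask when 1 hashtag had at least 3 times the counts of the other and the other did not exceed the count limit of the study's code. Of 2879 cells, 1179 had the hashtag of SplitA and 1605 that of SplitB, while 95 were multiplets. Cells with at least 1000 genes were kept, which left 899 cells of SplitA and 1195 of SplitB, 2094 in all. The kept cells held 5852780 and 8066440 UMIs, with medians of 6063 and 6346 UMIs per cell. A UMI marks 1 captured RNA molecule at its 3′ end, so UMIs per 1000000 UMIs of a flask (CPM) compare genes without a division by gene length. Intervals in brackets are exact 95% intervals (Poisson for CPM, binomial for shares of cells) and cover counting error only, and the limit for a count of 0 is that of 3 counts.

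Core circuit factors bind the enhancers of their own and of each other's genes, and together they hold a cell in a lineage. In the sympathetic lineage PHOX2A is a homeodomain factor that activates genes of noradrenaline synthesis. HAND2 and HAND1 are basic helix-loop-helix factors that bind E boxes, GATA2 and GATA3 are zinc finger factors that bind GATA sites, ISL1 is a LIM-homeodomain factor, TBX2 is a T-box repressor, and INSM1 is a zinc finger repressor of neuroendocrine cells. Neuroblastoma cells can also adopt a mesenchymal state, which is marked by another set of factors such as PRRX1.

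In the GRCh38 annotation of GENCODE release 44 all 8 are protein-coding genes. PHOX2A lies at chr11:72239077-72245664 (minus strand), HAND2 at chr4:173524969-173530229 (minus) and HAND1 at chr5:154474972-154478227 (minus). GATA2 lies at chr3:128479427-128493201 (minus), GATA3 at chr10:8045378-8075198 (plus) and ISL1 at chr5:51383448-51394730 (plus). TBX2 lies at chr17:61399843-61409466 (plus) and INSM1 at chr20:20368104-20370949 (plus). 4 of the loci hold an antisense gene. HAND2-AS1 overlaps HAND2 by 2960 bases, 867 of them exonic in both genes, and GATA2-AS1 overlaps GATA2 by 3990 bases, 78 of them exonic in both. GATA3-AS1 and TBX2-AS1 overlap their partners by 3035 and 9624 bases, with 0 bases exonic in both. The strand setting of the counting is not given in the sources used here. Whether reads on the shared exonic bases of HAND2 and GATA2 were kept apart from those of their antisense genes is therefore not known here.

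Promoter windows of 250 bases before the RefSeq start (GRCh38.p14) were at hand for 6 of the 8 members, all but TBX2 and INSM1. They were searched on both strands for the GATA site AGATAA, the E box CANNTG and the PHOX2 palindrome (TAAT, 3 bases of any kind, ATTA). The windows of HAND2 and ISL1 each held 1 GATA site and 1 E box, which did not overlap, and the windows of PHOX2A, HAND1, GATA2 and GATA3 held none of the 3 motifs. Among 27305 windows of the same length, 9.37% held the GATA site, 62.2% the E box and 0.344% the palindrome. The 3 windows below are those of HAND2 and ISL1, which hold motifs of the factor families under study, and that of PHOX2A, the most abundant member. They are at chr4:173530230-173530479 (minus strand), chr5:51383198-51383447 (plus) and chr11:72244177-72244426 (minus), and capitals mark the motif letters, with the GATA site of HAND2 read on the other strand. A match of letters is a description and not a bound site.
HAND2 promoter: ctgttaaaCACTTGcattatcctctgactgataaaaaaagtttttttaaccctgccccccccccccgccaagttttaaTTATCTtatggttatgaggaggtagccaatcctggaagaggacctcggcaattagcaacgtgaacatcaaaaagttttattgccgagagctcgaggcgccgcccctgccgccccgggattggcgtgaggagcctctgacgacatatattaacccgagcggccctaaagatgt
ISL1 promoter: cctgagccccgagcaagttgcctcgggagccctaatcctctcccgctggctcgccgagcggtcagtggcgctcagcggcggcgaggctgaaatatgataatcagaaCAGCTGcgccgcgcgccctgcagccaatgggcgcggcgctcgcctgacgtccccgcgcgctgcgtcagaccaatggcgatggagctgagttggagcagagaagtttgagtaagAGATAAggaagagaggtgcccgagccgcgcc
PHOX2A promoter: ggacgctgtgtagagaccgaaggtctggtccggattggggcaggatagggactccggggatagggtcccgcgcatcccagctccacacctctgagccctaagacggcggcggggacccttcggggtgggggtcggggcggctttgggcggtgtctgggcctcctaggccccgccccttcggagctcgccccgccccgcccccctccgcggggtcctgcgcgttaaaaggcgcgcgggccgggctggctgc
The HAND2 window lies within the HAND2-AS1 gene on the opposite strand, at chr4:173527270-173659696. The PHOX2A window lies within the PHOX2A gene of GENCODE (chr11:72239077-72245664), so the RefSeq start used for it is downstream of the GENCODE start.

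7 of the 8 members were abundant RNAs of these cells and INSM1 was all but absent. PHOX2A was the highest member, with 685 CPM in SplitA (664 to 706) and 665 CPM in SplitB (648 to 683), a mean of 675 ± 13.8 CPM (SD, n = 2 flasks). GATA2 followed with 470 CPM (452 to 487) in SplitA and 445 CPM (431 to 460) in SplitB, a mean of 457 ± 17.2 CPM, which was rank 244 among the 17881 genes with a UMI in the kept cells. HAND2 had 318 CPM in either flask (303 to 332 and 305 to 330). GATA3 had 249 CPM (237 to 262) in SplitA and 238 CPM (228 to 249) in SplitB, about the same in both. ISL1 had 181 CPM (170 to 193) and 180 CPM (171 to 189). HAND1 had 184.5 CPM (174 to 196) and 175 CPM (166 to 184.7), so that ISL1 and HAND1 had overlapping intervals in both flasks. TBX2 had 113 CPM (104 to 121) in SplitA and 122 CPM (115 to 130) in SplitB. Apart from ISL1 and HAND1, neighbours in this order had intervals that did not overlap in either flask. The order was therefore PHOX2A, GATA2, HAND2, GATA3, then ISL1 with HAND1, then TBX2, and it was given by counting error within 1 library and not by independent cultures.

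INSM1 had 0 UMIs in SplitA, which allows up to 0.513 CPM, and 4 UMIs in SplitB, which is 0.496 CPM (0.135 to 1.27). The 4 UMIs came from 2 of 1195 cells, with 3 of them in 1 cell, while the interval takes each UMI as independent. The rank of INSM1 was 14502 of 17881 genes. The summed level of the 8 members was 2200 CPM in SplitA and 2144 CPM in SplitB, and INSM1 contributed to it in SplitB alone.

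**Figure D1:**
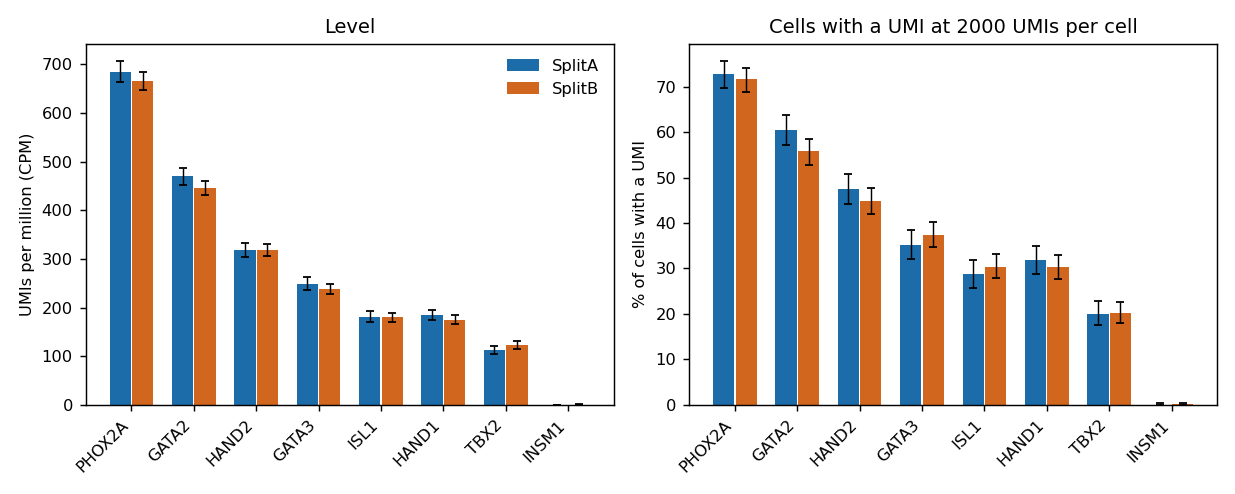
Level in CPM (left) and share of cells with a UMI after thinning each cell to 2000 UMIs (right) for the 8 genes in SplitA (blue) and SplitB (orange), with exact 95% intervals of counting error as bars. The level falls from 685 and 665 CPM for PHOX2A to 113 and 122 CPM for TBX2, and INSM1 is near 0.

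Most cells held at least 1 UMI of the higher members. PHOX2A was found in 94.9% (93.2 to 96.2) of the cells of SplitA and 93.6% (92.1 to 94.96) of SplitB, with up to 24 and 27 UMIs in 1 cell. GATA2 was found in 88.8% (86.5 to 90.8) and 83.8% (81.6 to 85.9) of cells, a gap between flasks beyond counting error. HAND2 was found in 79.3% and 80.4% of cells, GATA3 in 71.5% and 71.0%, HAND1 in 61.0% and 62.3%, ISL1 in 60.1% and 64.3%, and TBX2 in 45.5% and 48.8%. Depth sets these shares, so each cell was also reduced to 2000 randomly drawn UMIs, which left out 1 cell of SplitA and 2 of SplitB. At that depth PHOX2A was found in 72.7% (69.7 to 75.6) and 71.6% (68.9 to 74.1) of cells, and GATA2 in 60.5% (57.2 to 63.7) and 55.7% (52.9 to 58.6), with intervals that overlapped. HAND2 was found in 47.4% and 44.8%, GATA3 in 35.2% and 37.4%, HAND1 in 31.8% and 30.3%, ISL1 in 28.7% and 30.4%, and TBX2 in 20.0% and 20.3%. All cells were of 1 line, so no cell type that lacks the members was at hand to measure free RNA.

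The spread of a member over cells of equal depth was described by the ratio of the variance to the mean of its UMIs, which is 1 for counting noise alone. PHOX2A had a ratio of 1.34 in SplitA and 1.19 in SplitB, above that of 95.1% and 91.1% of the 3649 genes found in at least 5% of thinned cells. HAND2 had ratios of 1.02 and 1.04, near the median of those genes (1.03 in both flasks). HAND1 had 1.33 and 1.08, a value that differed between flasks. The other members had ratios of 1.03 to 1.24. For a gene that varies between cells this ratio also rises with its level, and the 3649 genes were not matched for level. SOX4, at a level of 533 and 554 CPM, had ratios of 1.44 and 1.41, above those of PHOX2A.

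The label adrenergic was checked against other factors and markers. Of 16 other adrenergic factors, SOX4 (533 and 554 CPM), MEIS2 (274 and 260), TFAP2B (167 and 165) and TLX2 (166 and 151) had levels in the range of the members. MYCN had 1.54 and 2.60 CPM. The dopamine beta-hydroxylase gene DBH, a target of PHOX2A, had 335 and 325 CPM, while TH, the rate-limiting enzyme of catecholamine synthesis, had 1.54 and 1.12 CPM. Of 12 mesenchymal factors, TWIST1 had 166 and 160 CPM, the other 11 had at most 7.86 CPM, and PRRX1 was at 0 in both flasks. The Schwann cell factor SOX10, and the markers PTPRC and CD74 (leukocytes) and PECAM1 and VWF (endothelium), were at 0 in both flasks.

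The antisense genes were measured as separate rows of the matrix. HAND2-AS1 had 284 and 289 CPM, close to HAND2 itself, and GATA3-AS1 had 117 and 116 CPM against 249 and 238 for GATA3. TBX2-AS1 had 86.5 and 81.8 CPM, and GATA2-AS1 had 63.6 and 69.8 CPM.

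Members were found in the same cells about as often as their shares predict. For each of the 21 pairs of the 7 expressed members, the number of thinned cells with both genes was divided by the number that the product of their shares gives. The median ratio was 1.02 in SplitA, over a range of 0.805 to 1.24, and 1.03 in SplitB, over a range of 0.969 to 1.11. Over all 6655776 pairs of the 3649 genes the median was 1.00 in each flask. In SplitA 5% of these pairs were below 0.553 and 5% above 1.52, and in SplitB 5% were below 0.610 and 5% above 1.46. Every member pair lay between these limits, although the pairs of all genes were not matched for level. Of the member pairs, 14 were above 1 in SplitA and 17 in SplitB, against 50.4% and 51.5% of all pairs. 11 pairs were above 1 in both flasks and 1 was below 1 in both, while 27.5% of all pairs were above 1 in both. The pairs share genes and cells and are not independent.

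In SplitA the highest pair was HAND1 with TBX2, found together in 71 cells of SplitA against 57.3 by the product (1.24) and in 80 cells of SplitB against 73.2 (1.09). In SplitB it was GATA2 with TBX2, found in 129 cells of SplitA against 109 (1.19) and in 150 of SplitB against 135 (1.11). HAND1 with GATA2 had the same ratio in both flasks (1.09), and HAND2 with ISL1 had 1.09 and 1.08. At the other end, GATA3 with TBX2 had 0.805 in SplitA and 1.02 in SplitB, and GATA3 with ISL1 had 0.859 and 1.02, so the low ratios of SplitA were not seen in SplitB. Of the pairs with an antisense gene that share exonic bases, HAND2 with HAND2-AS1 had 1.06 and 1.01, and GATA2 with GATA2-AS1 had 0.992 and 0.913. GATA3 with GATA3-AS1 had 1.22 and 0.978, and TBX2 with TBX2-AS1 had 1.19 and 1.05. Within G1 cells alone, the median over the 21 pairs was 1.00 in SplitA and 1.02 in SplitB.

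**Figure D2:**
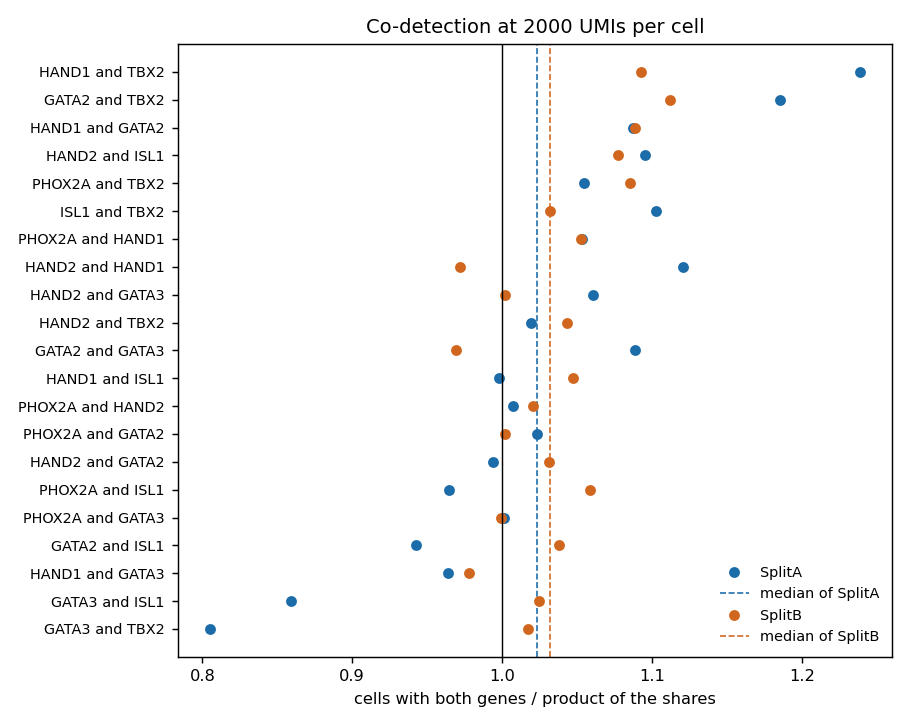
Number of cells with both genes of a pair divided by the number given by the product of their shares, at 2000 UMIs per cell, for 21 pairs of members in SplitA (blue) and SplitB (orange), with dashed lines at the medians of 1.02 and 1.03. Most pairs lie near 1, and 11 pairs, HAND1 with TBX2 and GATA2 with TBX2 among them, lie above it in both flasks.

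At 2000 UMIs a cell held a UMI of 3 of the members in the median of either flask, with a mean of 2.96 in SplitA and 2.90 in SplitB. No member was seen in 2.34% (1.45 to 3.55) of the cells of SplitA and 2.60% (1.77 to 3.67) of SplitB, against 1.43% and 1.68% by the product of the shares. All 7 expressed members were seen in 2 cells of either flask, 0.223% and 0.168%. A cell without a UMI at this depth is not a cell without the RNA.

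Cell cycle phases were called from S and G2M gene lists that hold none of the members. SplitA had 369 cells in G1, 276 in S and 254 in G2M, and SplitB had 505, 348 and 342. UMIs were summed per flask and phase. The 6 sums were compared with the flask as a block (edgeR quasi-likelihood test with Benjamini-Hochberg adjustment). The p-values rest on counting error of the summed UMIs and on how far phase differences disagree between the flasks of 1 library. They do not measure a spread between independent cultures. Each SE was derived from the same test, as the absolute log2 fold change over the square root of its F statistic. It is not a separate measure of spread. G2M cells were deeper, with medians of 7077.5 and 6969 UMIs per cell against 5830 and 6130 in G1. Scores of 23.1% of the cells lay within 0.05 of another phase.

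In S phase, 5 of the 7 members tested were lower than in G1 and none was higher. Of all 10521 genes tested, 20.0% were called, 10.5% higher and 9.42% lower. Here and in the comparisons below, the genes tested were not matched for level, and smaller changes can be called in genes with more UMIs. The shares called therefore cannot show whether the members differ from other genes of their level. The genes called in S had a median absolute log2 fold change of 0.68, greater than that of each of the 5 members. PHOX2A, the homeodomain activator, had 820 CPM in G1 of SplitA and 769 CPM in G1 of SplitB, against 623 CPM in S of either flask. It fell by 0.43 on the log2 scale (SE 0.04, adjusted p = 2.2e-13). The E box factor HAND2 went from 350 and 347 CPM in G1 to 252 and 275 CPM in S, with no overlap of flasks between the phases. Its log2 fold change was -0.48 (SE 0.06, adjusted p = 8.4e-10). HAND1 went from 207 and 193 CPM to 152 and 148 CPM, a log2 fold change of -0.50 (SE 0.08, adjusted p = 3.4e-07). GATA3 went from 253 and 250 CPM to 219 and 194 CPM (log2 fold change -0.38, SE 0.07, adjusted p = 8.4e-06). ISL1 went from 200 and 197 CPM to 154 and 167 CPM (log2 fold change -0.38, SE 0.08, adjusted p = 6.6e-05). In each of these 5 genes every S value was below every G1 value.

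GATA2 and TBX2 did not pass the test in S. GATA2 had 461 and 429 CPM in G1 and 442 and 424 CPM in S (log2 fold change -0.13, SE 0.05, adjusted p = 0.072). TBX2 had 118 and 116 CPM in G1 and 97.6 and 119 CPM in S (log2 fold change -0.18, SE 0.10, adjusted p = 0.21), lower in SplitA and about level in SplitB. The median log2 fold change over the 7 members was -0.38, against -0.0013 over all genes tested. All 5 calls held with DESeq2 (adjusted p between 4.8e-08 and 0.044) and with scaling by total UMIs, and that of ISL1 was lost on thinned sums (adjusted p = 0.068).

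In G2M, 4 of the 7 members were lower than in G1 and none was higher, where 30.3% of all genes were called, 15.2% higher and 15.1% lower. PHOX2A had 571 and 561 CPM, again below both G1 values, and fell by 0.61 on the log2 scale (SE 0.04, adjusted p = 2.9e-20). ISL1 had 182 and 168 CPM (log2 fold change -0.30, SE 0.07, adjusted p = 0.00077). HAND1 had 186 and 176 CPM (log2 fold change -0.26, SE 0.07, adjusted p = 0.0030), and HAND2 had 336 and 316 CPM (log2 fold change -0.22, SE 0.06, adjusted p = 0.0014). GATA2 had 505 and 486 CPM (log2 fold change 0.04, SE 0.05, adjusted p = 0.64). GATA3 had 271 and 262 CPM (log2 fold change -0.04, SE 0.06, adjusted p = 0.66), and TBX2 had 119 and 135 CPM (log2 fold change 0.01, SE 0.09, adjusted p = 0.93).

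The fit uses TMM factors, which place the median gene near 0, while CPM divides by all UMIs. Scaling by total UMIs, which was added once results were known, moved the median of all genes by 0.09 in S, 0.12 in G2M and 0.03 in G2M against S. It raised the share of higher calls from 52.8% to 68.4% in S, from 50.1% to 67.3% in G2M and from 50.6% to 62.0% in G2M against S. Under it PHOX2A remained lower in G2M (log2 fold change -0.49, adjusted p = 5.3e-14). The calls of HAND2 (-0.10, adjusted p = 0.17), HAND1 (-0.14, adjusted p = 0.13) and ISL1 (-0.18, adjusted p = 0.052) were lost, GATA2 was called higher (0.16, adjusted p = 0.0087), and GATA3 turned to 0.08 (adjusted p = 0.37). With DESeq2 PHOX2A was the 1 member called in G2M (adjusted p = 5.3e-16), and the adjusted p of ISL1, HAND2 and HAND1 was 0.11, 0.12 and 0.17. At an equal depth of 2000 UMIs per cell PHOX2A was again lower in G2M (log2 fold change -0.69, adjusted p = 9.1e-07). HAND2 (-0.28, adjusted p = 0.053), HAND1 (-0.28, adjusted p = 0.10) and ISL1 (-0.28, adjusted p = 0.11) had values of the same sign that did not pass.

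**Figure D3:**
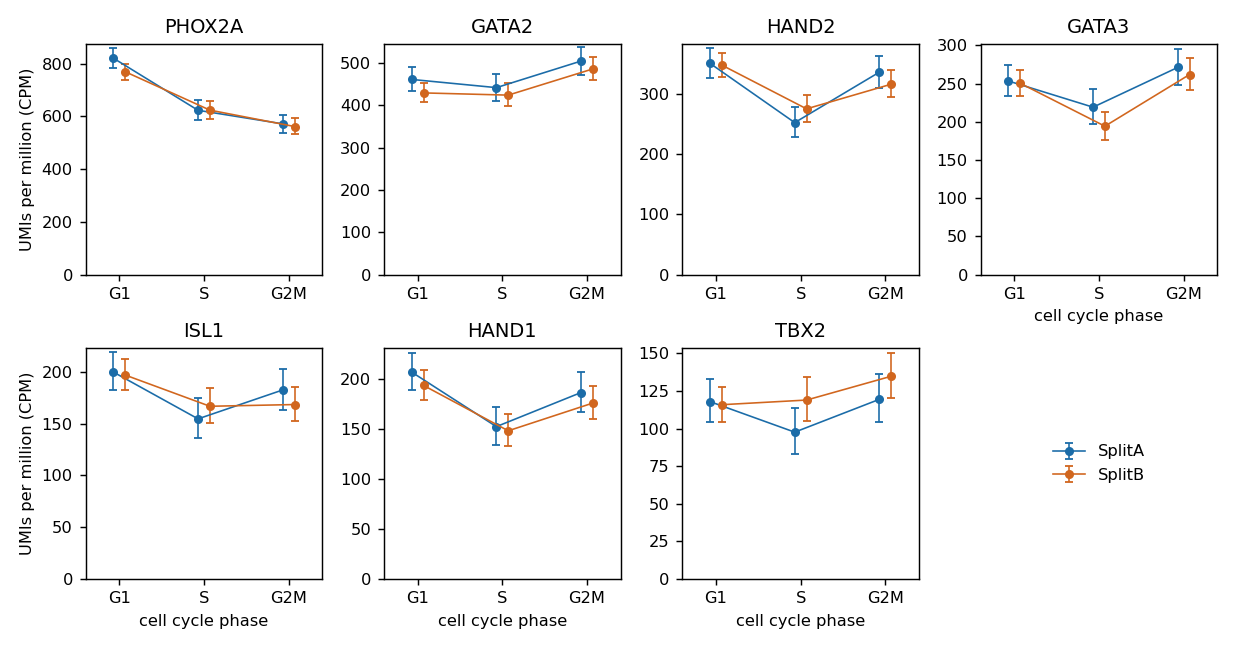
Level in CPM of the 7 expressed members in G1, S and G2M cells of SplitA (blue) and SplitB (orange), with exact 95% Poisson intervals. PHOX2A is highest in G1 (820 and 769 CPM) and lowest in G2M (571 and 561 CPM), while HAND2, HAND1, GATA2 and GATA3 are lowest in S in both flasks. ISL1 is lowest in S in SplitA (154 CPM) and about equal in S and G2M in SplitB (167 and 168 CPM).

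The members differed in how S and G2M compared. A contrast of G2M against S from the same fit, added once results were known, called 7.45% of all genes, 3.77% higher and 3.68% lower. GATA3 was higher in G2M than in S (log2 fold change 0.34, SE 0.07, adjusted p = 0.00041), as were HAND2 (0.26, SE 0.06, adjusted p = 0.0039) and GATA2 (0.16, SE 0.05, adjusted p = 0.043). PHOX2A was lower in G2M than in S (-0.17, SE 0.05, adjusted p = 0.012). HAND1 (0.23, adjusted p = 0.071), TBX2 (0.19, adjusted p = 0.29) and ISL1 (0.08, adjusted p = 0.66) did not pass. None of these 4 calls was made by DESeq2 (adjusted p between 0.18 and 0.86), and scaling by total UMIs kept all but that of PHOX2A (adjusted p = 0.054). Of 13 alternatives, 11 kept the call of GATA3, 11 that of HAND2, 7 that of PHOX2A and 5 that of GATA2. On sums of thinned cells all 4 calls were lost, and HAND1 was the 1 member called (0.55, adjusted p = 0.039). On thinned cells the mean number of members seen per cell was 3.22 and 3.04 in G1, 2.63 and 2.73 in S, and 2.95 and 2.89 in G2M, so S was lowest in both flasks.

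Other adrenergic factors and cofactors were called in both directions. For comparison with this and the next paragraph, 20.0% of all genes were called in S, 30.3% in G2M and 7.45% in G2M against S. Those genes were not matched for level. Of 14 other adrenergic factors tested, 2 rose and 4 fell in S against G1 (KLF7 -0.76, SOX11 0.58, SATB1 -0.50 and SOX4 -0.46 on the log2 scale). In G2M 4 rose and none fell, among them SOX11 by 1.08 (SE 0.09), EYA1 by 0.85 (SE 0.20) and SIX3 by 0.36 (SE 0.14). In G2M, 7 of these factors rose and none fell when scaled by total UMIs, and 3 rose and 1 fell with relative log expression. In G2M against S 6 rose and none fell, led by SATB1, SOX11, SOX4 and TFAP2B. DESeq2 made 2 of the 6 calls in S (SOX11 and SOX4), 2 of the 4 in G2M (not those of EYA1 and SIX3) and 1 of the 6 in G2M against S (SOX4). Of 11 cofactors tested, 2 rose in S (LMO4 0.89 and HDAC2 0.54), and in G2M 5 rose (LMO4 1.08, KDM1A 0.57, TCF3 0.52 and HDAC2 0.37 among them) and 1 fell. DESeq2 made none of the 2 calls of cofactors in S and 1 of the 6 in G2M, not that of LMO4, KDM1A, TCF3 or HDAC2 (adjusted p between 0.17 and 0.27).

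Of 7 catecholamine genes tested, 4 fell in S and 6 fell in G2M, with none higher. In G2M the log2 fold change was -1.63 for MAOA (SE 0.53), -1.5004 for DDC (SE 0.10), -1.29 for SLC18A1 (SE 0.15) and -0.93 for DBH (SE 0.06). MAOA had only 29 UMIs in SplitA and 40 in SplitB over all phases. When scaled by total UMIs, 4 of these genes fell in S and 5 in G2M, with none higher. DBH was highest in G1 (425 and 407 CPM) and lowest in G2M (256 and 221 CPM). In the fit PHOX2A and the neuroendocrine genes CHGA and CHGB had the same order, so it is not particular to DBH and PHOX2A. Among the antisense genes, HAND2-AS1 fell in S by 0.51 (SE 0.06) and in G2M by 0.50 (SE 0.06), and GATA3-AS1 fell in S by 0.30 (SE 0.09), a call lost when scaled by total UMIs. GATA2-AS1 rose in G2M by 0.61 (SE 0.12) and TBX2-AS1 was not called in either. Of 3 mesenchymal factors tested, TWIST1 rose in G2M by 0.39 (SE 0.08). DESeq2 made 3 of the 4 catecholamine calls in S and 3 of the 6 in G2M, with no adjusted p for MAOA. It made both calls of HAND2-AS1 but not those of GATA3-AS1 (adjusted p = 0.39), GATA2-AS1 (adjusted p = 0.059) or TWIST1 (adjusted p = 0.053).

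To describe the relation to neuroendocrine genes, cells were scored after thinning to 2000 UMIs. A list of 15 genes (granins, peptide-processing enzymes and neuropeptides, such as CHGA, CHGB and GAL) gave each cell a score, and cells of each flask were divided by rank into low, middle and high terciles. Sums of all UMIs of the cells in the high and low terciles, without thinning, were compared by the same test. The high tercile held more G1 cells (50.5% and 50.4%) than the low tercile (35.7% and 32.2%).

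2 of the 7 members passed the test between terciles, in opposite directions, where 12.4% of the 10531 genes tested outside the score did, 5.91% higher and 6.50% lower. HAND2 had 295 and 282 CPM in the low tercile and 367 and 359 CPM in the high tercile, a log2 fold change of 0.20 (SE 0.06, adjusted p = 0.018). ISL1 had 193 and 175 CPM in the low tercile and 169 and 172 CPM in the high tercile, a log2 fold change of -0.23 (SE 0.08, adjusted p = 0.028). The flasks did not overlap between the terciles for either gene, although the ISL1 values of SplitB were nearly equal. PHOX2A had 647 and 594 CPM in the low tercile and 746 and 728 CPM in the high tercile (log2 fold change 0.12, SE 0.05, adjusted p = 0.11). The other 4 members had log2 fold changes of -0.18 to -0.13 and adjusted p of 0.10 to 0.45.

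These calls were not firm. Scaling by total UMIs moved the median of all genes by 0.14 and the share of higher calls from 47.6% to 77.4%, and under it PHOX2A (0.26, adjusted p = 3.5e-06) and HAND2 (0.33, adjusted p = 2.1e-06) were called higher, ISL1 was not called (-0.10, adjusted p = 0.47), and GATA2 and TBX2 turned to 0.01. Within G1 cells alone, HAND2 had a log2 fold change of 0.10 (adjusted p = 0.62) and ISL1 of -0.33 (adjusted p = 0.058). DESeq2 called neither gene (adjusted p = 0.37 and 0.45). On sums of thinned cells the edgeR test called no member (lowest adjusted p = 0.18).

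**Figure D4:**
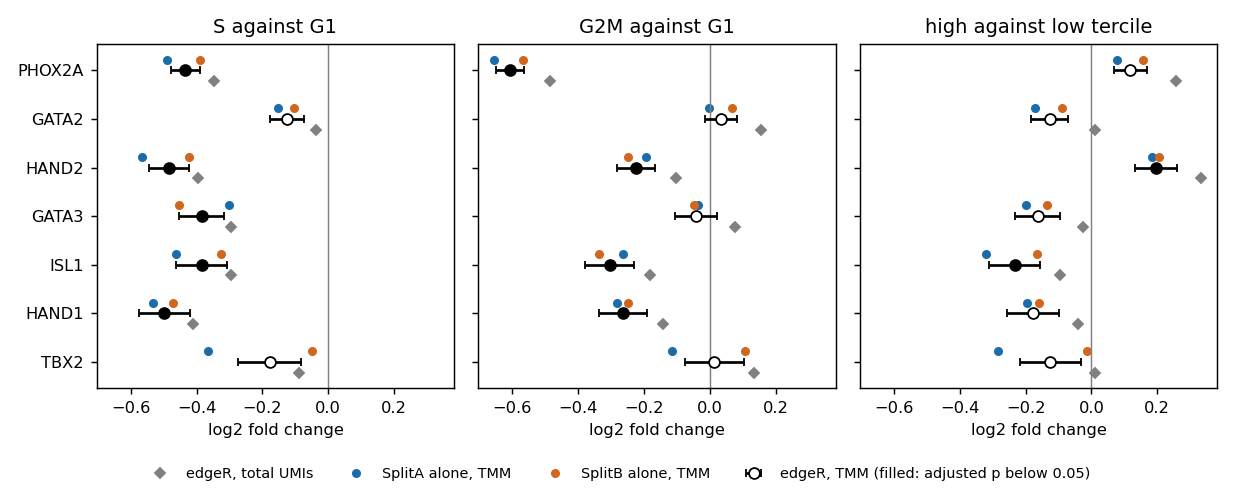
Log2 fold change of 7 members in S against G1 (left), G2M against G1 (middle) and the high against the low neuroendocrine tercile (right). Black points are the edgeR fit with TMM factors (filled where adjusted p is below 0.05), with bars of the SE derived from the test. Coloured points are SplitA (blue) and SplitB (orange) alone on the same scale, and gray diamonds are the fit scaled by total UMIs. The diamonds lie to the right of the black points by about the shift of the median of all genes, 0.09, 0.12 and 0.14.

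**Figure D5:**
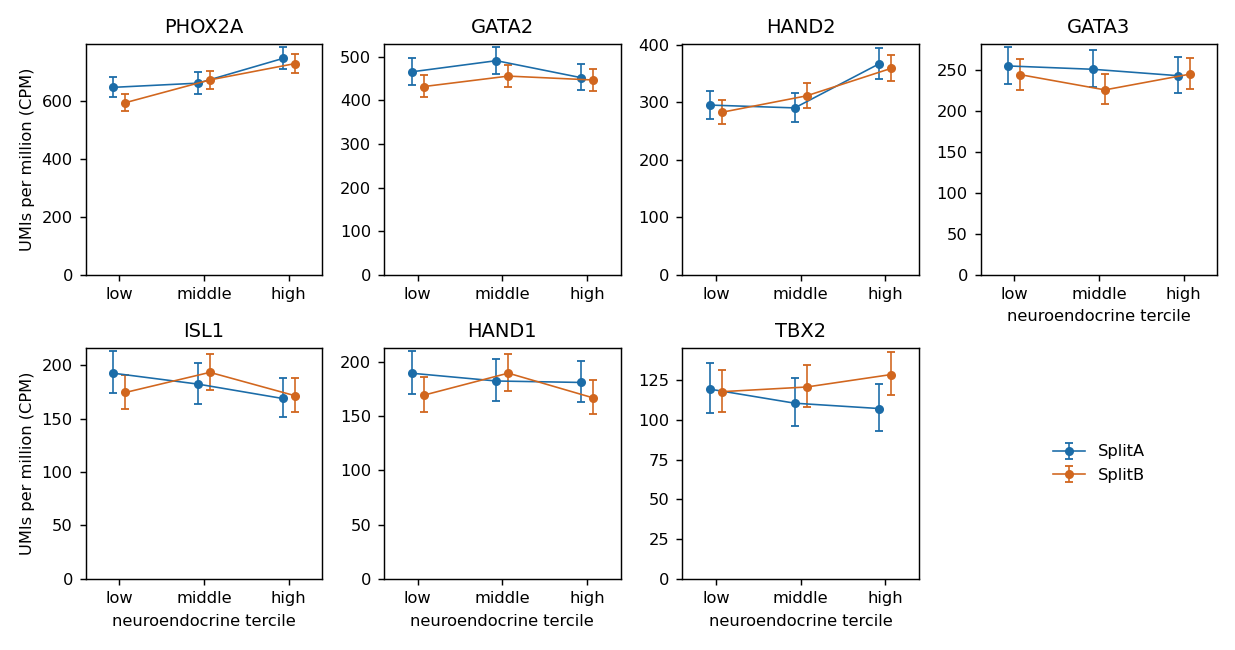
Level in CPM of the 7 expressed members in the low, middle and high neuroendocrine terciles of SplitA (blue) and SplitB (orange), with exact 95% Poisson intervals. HAND2 is higher in the high tercile (367 and 359 CPM) than in the low tercile (295 and 282 CPM) in both flasks.

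7 of 14 other adrenergic factors tested fell in the high tercile and none rose, against 6 and 2 when scaled by total UMIs. Of all genes tested outside the score, not matched for level, 6.50% were called lower and 5.91% higher. SOX11 fell by 0.82 (SE 0.10), SIX3 by 0.69 (SE 0.14) and TFAP2B by 0.37 (SE 0.08) on the log2 scale. Of the cofactors, LMO4 fell by 2.90 (SE 0.33), from 39 and 56 UMIs in the low tercile to 5 and 9 in the high tercile, and TCF3 fell by 0.64. Of 7 catecholamine genes, which are not in the score, 4 rose (DDC 1.63, SLC18A1 1.20, DBH 1.01 and SLC6A2 0.96). HAND2-AS1 rose by 0.23 (SE 0.06), beside HAND2, and TWIST1 fell by 0.50 (SE 0.08). DESeq2 made 4 of the 7 calls of other adrenergic factors, the 4 of catecholamine genes and that of TWIST1. It did not make those of SIX3 (adjusted p = 0.090), TFAP2B (adjusted p = 0.14), TCF3 (adjusted p = 0.20) and HAND2-AS1 (adjusted p = 0.27), and gave no adjusted p for LMO4.

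Cell by cell, the correlations between the members and the neuroendocrine genes were small. Over 70 pairs of the 7 members with the 10 neuroendocrine genes found in at least 5% of thinned cells, the median Pearson r of log-normalized values was 0.0042 over the 898 cells of SplitA and 0.0037 over the 1193 cells of SplitB. The lowest r was -0.080 and the highest 0.092. The highest r of PHOX2A were those with CHGA (0.068 and 0.084), CHGB (0.058 and 0.062) and GAL (0.055 and 0.061). Those with SCG2 (-0.034 and -0.011) and VGF (-0.026 and -0.031) were negative in both flasks, so PHOX2A had no common direction over the list. TBX2 with CHGA had r of -0.080 and -0.028. The points share a library and the counts are sparse, so these are descriptions only.

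The genes most like a member were sought by r over the same cells among the 3649 genes, and named where r was at least 0.1 in both flasks. PHOX2A alone had such genes, RGS5 with r of 0.157 and 0.116 and LGALS1 with r of 0.103 and 0.106. No gene, including another member, reached 0.1 in both flasks for HAND2, HAND1, GATA2, GATA3, ISL1 or TBX2, and INSM1 had too few UMIs to be compared. The first gene of GATA2 came close, with r of 0.099 and 0.105. Sparse counts lower r and PHOX2A is the most abundant member, so the fixed limit does not set PHOX2A apart from the others.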

How the data were processed

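The authors mapped the reads to GRCh38 and counted UMIs with Cell Ranger 4.0.0 (STAR 2.7 is also named in the submitters' processing notes), and deposited a table of the cells that passed its filter. It holds raw UMI counts, not normalized, for 33538 genes and 2 hashtags. The annotation version and the strand setting are not given in the sources used here. The mRNA and hashtag libraries are 1 pool of cells, so the flask of a cell is known from its hashtags alone, and SplitA and SplitB are replicates 1 and 2.

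Cells were assigned by the limits of the study's code (a count limit and a ratio of 3) and kept with at least 1000 genes, with no mitochondrial limit, so 70 and 104 kept cells had a share of 15% or more. Multiplets by hashtag were left out, which cannot show doublets within a flask, and Scrublet (scanpy 1.11.5) called 1 and 4 kept cells. Phases came from the CellCycleScoring function of Seurat 5.3.0. Sums of UMIs per flask and phase or tercile were tested with edgeR 4.0.16 (filterByExpr, TMM, quasi-likelihood, flask as block, Benjamini-Hochberg adjustment, threshold 0.05) in R 4.3.3. The flask pairs the sums, since each sum is made of cells of 1 flask. Positions came from GENCODE release 44. Levels, shares and correlations used pandas 2.3.3, numpy 2.4.6 and scipy 1.17.1 under Python 3.11.15, and plots matplotlib 3.10.9. The edgeR and co-detection steps were tested on simulated data.

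The members and gene lists were chosen with earlier results of these data known. The 8 members are always named, and of each other list the counts and, of the genes called, up to 4 with the greatest absolute log2 fold change, apart from some genes of the lists that are not reported here. 53 alternatives were planned, and the scaling by total UMIs and the contrast of G2M against S were added after the data were seen. DESeq2 1.42.0 was an alternative.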

Additional observations from a re-analysis of the deposited data

Results flagged for a closer look

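Cells outside the comparisons also held the members, in excess of the limit that a count of 0 allows. In the 95 multiplets the levels were 699 CPM for PHOX2A, 454 for GATA2, 326 for HAND2, 241 for GATA3, 196 for ISL1, 178 for HAND1 and 148 for TBX2. In the 690 cells that had a flask but fewer than 1000 genes, with a median of 1406.5 UMIs and a median mitochondrial share of 35.0%, the levels were 781 CPM for PHOX2A, 461 for GATA2, 183 for HAND2, 227 for GATA3, 257 for ISL1, 160 for HAND1 and 156 for TBX2. The interval of HAND2 in these cells (158 to 212 CPM) lay below the intervals of the kept cells of both flasks, and those of PHOX2A (727 to 839 CPM), ISL1 (227 to 291 CPM) and TBX2 (132 to 183 CPM) lay above them. INSM1 had 0 UMIs in both sets of cells. The part of the mitochondrial share in these values was not tested.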

How the results depend on the processing

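Flasks share 1 library, so no value here speaks to other cultures, and with 6 sums per fit and 2 residual degrees of freedom a comparison without 1 flask has no test. The 5 members lower in S kept their direction in all 13 alternatives, and 1 call was lost in 1 of them (ISL1, thinned). GATA2 passed in S in 5 alternatives (log2 fold change -0.22 to -0.14). The levels were stable, with a summed 2144 CPM without SplitA and 2200 CPM without SplitB. The median co-detection ratio, 1.03 as the mean of the flasks, was 1.02 to 1.03 without either flask, 1.04 with at least 500 genes or without thinning, and 1.02 at 3000 UMIs.

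Counts of genes and members called moved by over 1.5 times in the settings given here, that of members between terciles in 8 of 14, and the cause was not tested except that thinned sums and G1 cells alone hold fewer UMIs. DESeq2 called 668 genes in S against 2100, 1057 in G2M against 3183, 173 in G2M against S against 784 and 314 between terciles against 1306, with 1 member in G2M, 0 in G2M against S and 0 between terciles. Thinned sums gave 832, 1240, 196 and 380 genes, with 1, 1 and 0 members in the last 3. At an unadjusted p below 0.05 DESeq2 had 3 members in G2M against S and 0 between terciles, and thinned sums had 3 between terciles. Scaling by total UMIs left 2 members called in G2M, PHOX2A lower and GATA2 higher. With phases on thinned cells 2 members were called in G2M against S. Between terciles, 538 genes and 1 member (TBX2) were called in G1 cells alone, and 461 genes and 1 member (ISL1) with a score without GAL, CHGA and CHGB. With a hashtag limit of 100, at least 500 genes, no filter on low counts or a scaled score, 1 member was called each. The median r with neuroendocrine genes was 0.011 in G1 cells alone against 0.0040. Without the replicate block, 2076 genes were called in S, 3161 in G2M, 730 in G2M against S and 1212 between terciles, and the call of GATA2 in G2M against S (adjusted p = 0.072) was the 1 member call lost.

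Directions turned in members not called, each with an adjusted p of 0.37 or more. In G2M against G1, TBX2 was -0.0196 with DESeq2, -0.0181 with a mitochondrial share under 15% and -0.0051 with relative log expression. GATA2 was -0.0092 with a hashtag limit of 100 and -0.087 on thinned sums, and GATA3 was 0.0043 with at least 500 genes, 0.036 with phases on thinned cells and 0.078 with total scaling. ISL1 was -0.11 in G2M against S with phases on thinned cells. Between terciles, GATA2 was 0.010 and TBX2 0.012 with total scaling, PHOX2A was -0.027 with the shorter score and HAND1 was 0.026 on thinned sums.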
